A study of Chlorocebus aethiops with 3 samples.

Results

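The AP-1 mRNAs measured here encode subunits of activator protein 1, a dimeric transcription factor. They were taken from the array by their human RefSeq accessions, from a list of accessions and gene symbols that covers 9 genes. Of these, 7 genes were analysed, through 12 of the 41000 probes: JUN (NM_002228), JUNB (NM_002229), FOS (NM_005252), FOSB (NM_006732), FOSL1 (NM_005438), FOSL2 (NM_005253) and ATF2 (NM_001880). No probe was found for JUND or ATF3 under the accessions of that list. The values below therefore say nothing about JUND, whose polysome loading is known to need RHA. Of the 12 probes, 10 passed the filter on dim signals and were tested, and these 10 belong to 6 genes, all but FOSB.

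The cells were COS-7, a fibroblast-like line from African green monkey kidney that carries the SV40 large T antigen. Knockdown cells received siRNAs directed at DHX9, the gene of RNA helicase A (RHA), and control cells received scrambled siRNA, both at 0.5 nM. Both groups were transfected in serum-free medium for 4 h, kept in medium with 10% serum for 24 h, split, and after a further 24 h transfected once more in the same way with 24 h of incubation. Heavy polysome fractions of 15% to 45% sucrose gradients were pooled. On each of 3 Agilent arrays, described by the labels as biological replicates 1 to 3, knockdown RNA was in the Cy5 channel and control RNA in the Cy3 channel. The siRNAs and the array probes were designed on human sequence, the cells were 1 monkey line, and dyes were not swapped, so an effect of the dyes cannot be told apart from that of the siRNAs. A ratio on these arrays compares the amount of an mRNA in heavy polysomes between knockdown and control cells. It moves with the amount of the mRNA in the cell as well as with its loading, which cannot be told apart because total RNA was not analysed here. The labelled cell type could not be checked against marker genes, since the files pair probes with accessions and not with symbols.

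JUN family proteins dimerise with one another, with FOS family proteins or with ATF2, and the dimers bind AP-1 or CRE-like sites in DNA. FOS proteins cannot form stable dimers with themselves and depend on a JUN partner, so the makeup of the dimers follows from which subunits a cell makes. Several of these genes are immediate early genes, whose mRNAs are induced within minutes by serum and growth factors and are short-lived. RHA unwinds structured RNA, and the translation of some mRNAs with structured leaders is known to depend on it.

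After loess normalization, heavy polysomes of knockdown cells held less JUN and JUNB mRNA than those of control cells. JUN stood at 0.337 times and JUNB at 0.420 times the control level (n = 3 arrays, limma adjusted p of 0.0173 and 0.0161). Both calls were lost when each array was centred on its median in place of loess, and also without replicate 2. For FOSL2 1 of 3 probes fell, to 0.701 times the control level, and the other two did not pass the test. No FOS, FOSL1 or ATF2 probe passed the test. After loess the probe of FOS lay below 0 and both probes of FOSL1 lay above 0 on all 3 arrays. For FOS and for FOSL1 probe A_23_P322519 these signs did not hold on every array under other centrings.

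In all, 3 of the 10 tested AP-1 probes fell and 0 rose (limma, adjusted p under 0.05), where 8.64% of the 18146 probes tested fell and 9.72% rose. At an unadjusted p under 0.05, limma had 5 of the 10 below 0 and 1 above, against 16.9% and 18.3% of all tested probes. The median of the 10 mean log2 ratios was -0.21, against 0.018 over all tested probes. On all 3 arrays, 5 of the 10 lay below 0 and 3 above, where 26.6% and 31.8% of all tested probes did so. Of those above 0, FOSL1 probe A_23_P322519 had passed the filter on dim signals through the knockdown channel alone. These calls depended on the centring. When each array was centred on the median of all its probe spots, 0 AP-1 probes fell and 1 rose, while over all probes 59 fell and 3561 rose. With centring on the tested probes, 3 AP-1 probes fell (JUN, JUNB and FOSL2 probe A_23_P348121) and 1 rose, while over all probes 1088 fell and 3127 rose. Without replicate 2, limma called 0 probes in all, with 4 AP-1 probes below 0 and 1 above at an unadjusted p under 0.05.

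**Figure D1:**
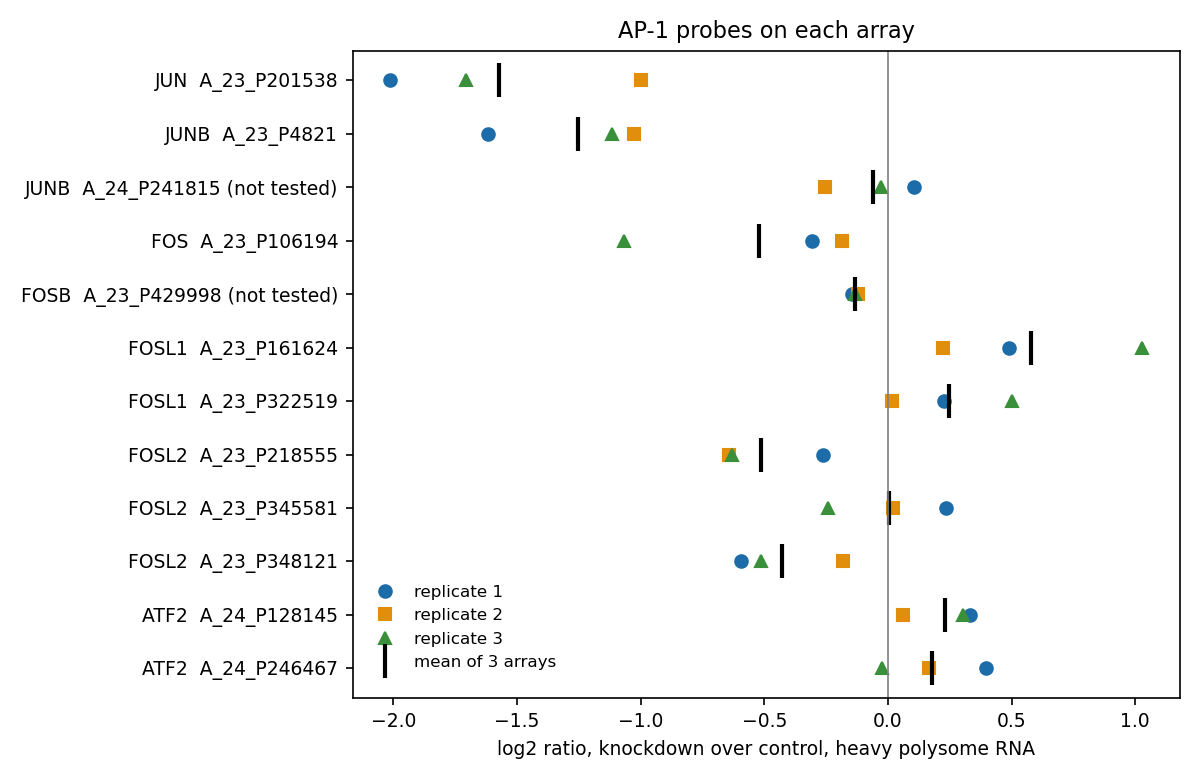
Log2 ratio of knockdown over control (horizontal axis) of the 12 AP-1 probes (vertical axis) on replicates 1, 2 and 3, with a bar at the mean of the 3 arrays. All 3 arrays put JUN and the tested JUNB probe near or below -1, both FOSL1 probes lie above 0, and the 3 FOSL2 probes do not share 1 position.

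The targeted mRNA, DHX9, was read by 3 probes, of which 2 were tested. These had log2 ratios of -0.12, -0.12 and -0.76 (A_24_P36847) and of -0.041, -0.20 and -0.60 (A_23_P97749) on replicates 1, 2 and 3. Their limma adjusted p were 0.210 and 0.217, short of the threshold, and the third probe, A_24_P808534, was not tested, with log2 ratios of -0.29, 0.13 and -0.12. With each array centred on its median in place of loess, the means of the tested probes were 0.068 and 0.26, above 0. The groups are therefore named by their labels, and a fall of DHX9 mRNA in heavy polysomes was not established.

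JUN is the prototype of the JUN family and the strongest activator among its members. Its 1 probe, A_23_P201538, is printed as 10 spots on each array. The control signal, the mean over the 10 spots, was 4570 on replicate 1, 1508 on replicate 2 and 7761 on replicate 3, over a local background of 26.1, 27.6 and 28.6. The knockdown signal was 2113, 2359 and 7536, over 59.3, 58.5 and 59.8. These brightnesses are not yet balanced between the dyes. Before normalization the log2 ratio of Cy5 over Cy3 was -1.11, 0.65 and -0.042 for JUN, whereas the median tested probe stood at 1.23, 1.50 and 1.33. On these raw ratios JUN was lower than the median tested probe on every array. Its plain Cy5 signal nevertheless exceeded its Cy3 signal on replicate 2. The raw ratios include the local background, which was higher in Cy5 and weighs more on dim probes than on JUN. The size of this gap is therefore not a measure of the difference between the groups. After background correction and centring on the tested probes, JUN stood at -1.70, -0.26 and -1.29.

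After normalization the log2 ratios of JUN were -2.01, -0.997 and -1.71 on replicates 1, 2 and 3. All 3 arrays lay below 0, and replicate 2 showed the smallest difference. The mean was -1.57 ± 0.52 (SD, n = 3), with a 95% interval of -2.10 to -1.05 and a limma adjusted p of 0.0173. Only 28 of the 18146 tested probes, JUN among them, had a mean ratio as low. Without replicate 2 the mean was -1.86 at a limma adjusted p of 0.117. With median centring in place of loess the ratios were -1.38, 0.26 and -1.18, and the mean of -0.77 was no longer past the threshold (limma adjusted p of 0.172).

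The 10 spots give a measure of the error within an array. Their log2 ratios ranged from -2.11 to -1.91 on replicate 1, from -1.09 to -0.86 on replicate 2 and from -1.78 to -1.65 on replicate 3. The SD between spots was 0.066, 0.075 and 0.044, against 0.52 between arrays. The spread of JUN thus lay between the replicates and not between the spots, and the spots of 1 array are not replicates of the condition. JUN was bright enough that 733, 998 and 934 tested probes were as bright or brighter on the 3 arrays. Among those the median log2 ratio was -0.050, -0.062 and 0.077, and 6, 138 and 2 probes, JUN among them, were as low as JUN. Loess brings the median ratio near 0 at every brightness, so these medians cannot test for a trend with brightness.

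**Figure D2:**
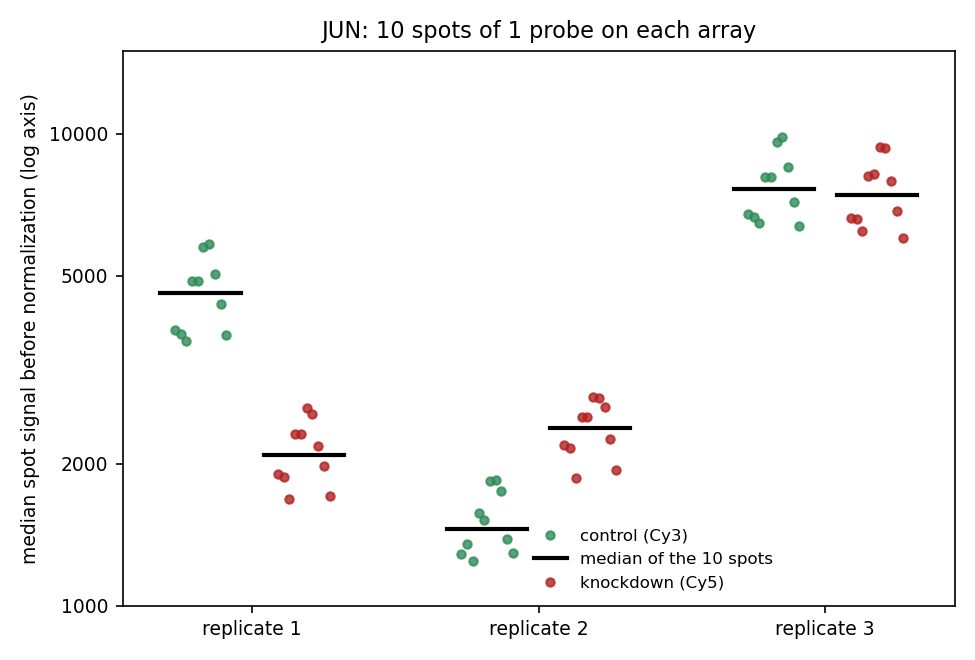
Signal of each of the 10 spots of the JUN probe before normalization (log axis) in the control (Cy3) and knockdown (Cy5) channels of replicates 1, 2 and 3, with a line at the median. The order of the channel medians differs between arrays: the medians were 4610 and 2082 on replicate 1, 1452 and 2384 on replicate 2, and 7635 and 7407 on replicate 3. On replicate 3 the spots of both channels overlap, from 6371 to 9829 in control and from 6021 to 9368 in knockdown.

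JUNB encodes a JUN family protein that activates more weakly than JUN and can hold back JUN-driven transcription. Its probe A_23_P4821 had control signals of 461.5, 264 and 1313 and knockdown signals of 288.5, 368 and 1595. The log2 ratios after normalization were -1.62, -1.03 and -1.11 on replicates 1, 2 and 3. As for JUN, all 3 lay below 0 and replicate 1 was the lowest. The mean was -1.25 ± 0.32 (SD, n = 3), with a 95% interval of -1.62 to -0.88 and a limma adjusted p of 0.0161, and 119 of the tested probes had a mean as low. Without replicate 2 the mean was -1.37 at a limma adjusted p of 0.117, and with median centring it was -0.62 at 0.116.

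The second JUNB probe, A_24_P241815, was well above background on 2 of 3 arrays in each channel and was not tested. Its control signals were 27.5, 35 and 40 over backgrounds of 24, 25 and 28, and its knockdown signals were 80.5, 67.5 and 88 over 61, 53 and 59. Its log2 ratios were 0.11, -0.26 and -0.029. The offset added to every signal draws ratios towards 0 at signals this close to the background. The fall of JUNB therefore rests on 1 probe, as does that of JUN.

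FOS encodes the founding FOS family protein, a textbook immediate early product. Its probe, A_23_P106194, had control signals of 69, 59.5 and 208 and knockdown signals of 121, 144.5 and 191. The log2 ratios were -0.31, -0.19 and -1.07, so replicate 3, where the control signal was the highest, lay apart from the others. The mean was -0.52 ± 0.48 (SD, n = 3), with a 95% interval of -1.01 to -0.028 and a limma adjusted p of 0.127. Without replicate 3 the mean was -0.25. Under median centring its 3 ratios were 0.089, 0.41 and -0.97, so that replicate 3 alone lay below 0. The call depended on the processing: with a normexp offset of 0 the mean was -0.77 and passed the test, at a limma adjusted p of 0.0229, and over all alternatives the adjusted p ranged from 0.0126 to 0.720.

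FOSB, the closest relative of FOS in this family, was near background. Its probe A_23_P429998 was well above background on replicate 3 alone, in both channels, and was not tested. The control signals were 34, 31 and 43 and the knockdown signals 71, 64 and 75.5. The log2 ratios of -0.15, -0.12 and -0.13 lie close together, at signals where the offset draws any ratio towards 0. A change of FOSB in heavy polysomes was not measurable here.

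FOSL1 encodes FRA-1, a FOS family protein without the strong activation domain of FOS, which is made later and lasts longer after stimulation. Probe A_23_P161624 had control signals of 42, 58 and 107.5 and knockdown signals of 157, 195 and 617. Its log2 ratios were 0.49, 0.22 and 1.03, all above 0, with the highest on replicate 3. The mean was 0.58 ± 0.41 (SD, n = 3), or 1.49 times the control level, with a 95% interval of 0.14 to 1.02 and a limma adjusted p of 0.0772. Without replicate 3 the mean was 0.36. Probe A_23_P322519 was dimmer, with control signals of 32, 35.5 and 63 over backgrounds of 27.5, 27 and 31.5. It was well above background on 3 arrays in knockdown but only on 2 in control. It was thus tested through the knockdown channel alone, the one where its ratio is high. Its log2 ratios were 0.23, 0.018 and 0.50, and with centring on the tested probes that of replicate 2 was -0.25. Its mean of 0.25 ± 0.24 (SD, n = 3) had a limma adjusted p of 0.230. Probe A_23_P322519 passed the test, upward, in 1 of 13 alternatives, eBayes with an intensity trend (limma adjusted p of 0.0484). It was not tested where both channels had to be well above background.

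In the main setting both FOSL1 probes ordered the arrays alike, with replicate 3 the highest and replicate 2 the lowest. That order depended on the processing. With an offset of 0, A_23_P322519 was highest on replicate 1, at 0.86 against 0.73 on replicate 3. Agilent's processed log ratio also put its replicate 1 highest, at 1.23 against 0.996 on replicate 3. Probe A_23_P161624 passed the test in 6 of 14 alternatives, all upward, among them an offset of 0 with a mean of 0.91 (limma adjusted p of 0.00775) and median centring with a mean of 0.97 (0.0186). Its adjusted p ranged from 0.00706 to 0.171 over the alternatives.

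FOSL2 encodes FRA-2, the other late FOS family protein, and its 3 probes differed. Probe A_23_P218555, the brightest, had control signals of 82.5, 100.5 and 318 and knockdown signals of 161, 186 and 483. Its log2 ratios were -0.26, -0.64 and -0.63, with a mean of -0.51 ± 0.21 (SD, n = 3) and a limma adjusted p of 0.0439, just past the threshold. That call was lost without replicate 2 (mean -0.45, limma adjusted p of 0.223), without replicate 3 (mean -0.45, 0.115), with no filter on dim probes (0.0683), with Agilent's processed log ratio (mean -0.79, 0.0604) and with centring on the tested probes (mean -0.36, 0.118). With median centring the mean was -0.044 (limma adjusted p of 0.882).

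The second FOSL2 probe, A_23_P348121, had log2 ratios of -0.60, -0.18 and -0.51. Its mean of -0.43 ± 0.22 (SD, n = 3) missed the threshold at a limma adjusted p of 0.0674 and passed it, below 0, in 6 of 14 alternatives. The third, A_23_P345581, had log2 ratios of 0.23, 0.022 and -0.24, which straddle 0, with a mean of 0.0035 ± 0.24 (SD, n = 3) and a 95% interval of -0.32 to 0.32. The brightest FOSL2 probe lay below A_23_P345581 on all 3 arrays, with differences of -0.50, -0.66 and -0.39 on the log2 scale. The files do not place the probes on the FOSL2 transcript.

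ATF2 encodes a CREB/ATF family protein that dimerises with JUN and is a substrate of stress-activated kinases. Unlike the immediate early members it is made constitutively. Probe A_24_P246467 had control signals of 57, 61 and 157 and knockdown signals of 184, 214 and 381, with log2 ratios of 0.40, 0.17 and -0.025. Its mean was 0.18 ± 0.21 (SD, n = 3), with a 95% interval of -0.12 to 0.48. Probe A_24_P128145 had log2 ratios of 0.33, 0.060 and 0.30, with a mean of 0.23 ± 0.15 (SD, n = 3) and an interval of -0.039 to 0.50. The limma adjusted p were 0.341 and 0.191, and neither probe passed in any alternative. The intervals reach up to 0.50, so these arrays allow a log2 ratio of that size.

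**Figure D3:**
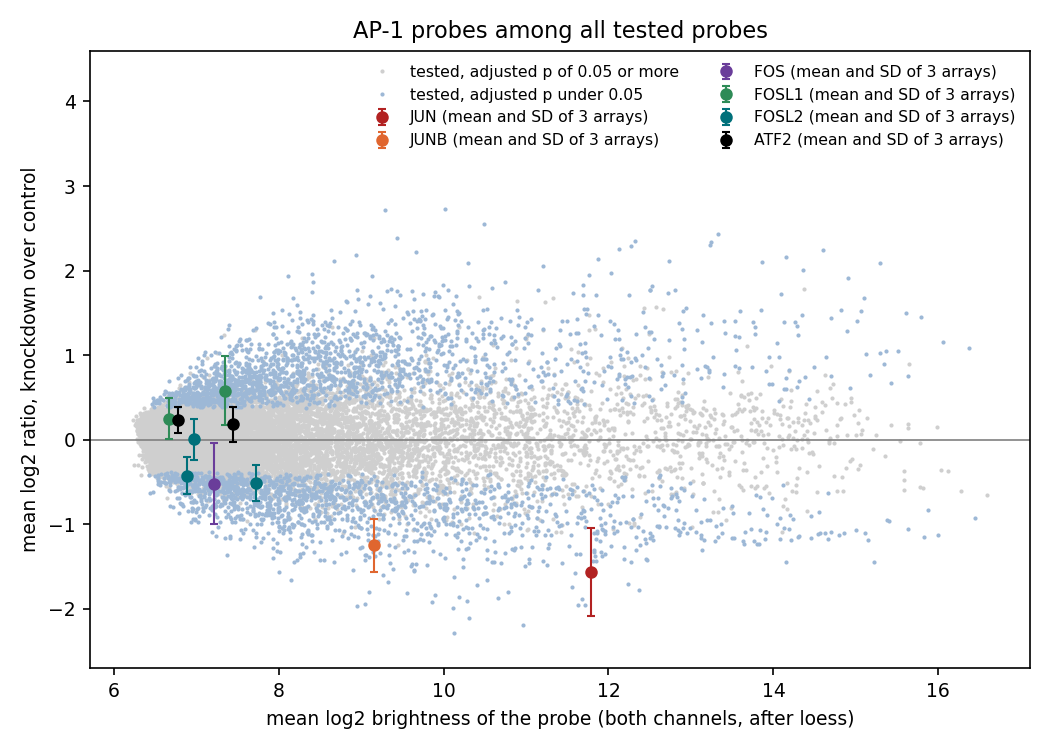
Mean log2 ratio of knockdown over control (vertical axis) against mean log2 brightness (horizontal axis) for all tested probes (small points) and the 10 tested AP-1 probes (large points, bars are the SD of 3 arrays). JUN and JUNB lie near the lower edge of the tested probes at their brightness, and the 8 other AP-1 probes are dim and lie between -0.52 and 0.58.

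The ratios of the members were also set against each other on the same array. With the brightest tested probe of each gene, the log2 ratio of JUN minus that of FOSL1 was -2.50, -1.22 and -2.73 on replicates 1, 2 and 3, with SD 0.82 around a mean of -2.15. That of JUNB minus FOSL1 was -2.11, -1.25 and -2.14, so both JUN family mRNAs lay below FOSL1 on every array. JUN and JUNB were closer, at -0.39, 0.029 and -0.59 for JUN minus JUNB, so their order was not the same on every array. Among the 15 pairs of genes and 5 pairs of probes within a gene compared, the exact sign-flip test, 2-sided, could not go below p = 0.25 with 3 arrays. At that smallest p stood 16 of the 20 pairs, with an adjusted p (Benjamini-Hochberg) of 0.312, so the test singles out no pair. These differences within an array do not depend on how the array is centred by a constant, since a constant cancels in them, but they do depend on the loess curve.

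**Figure D4:**
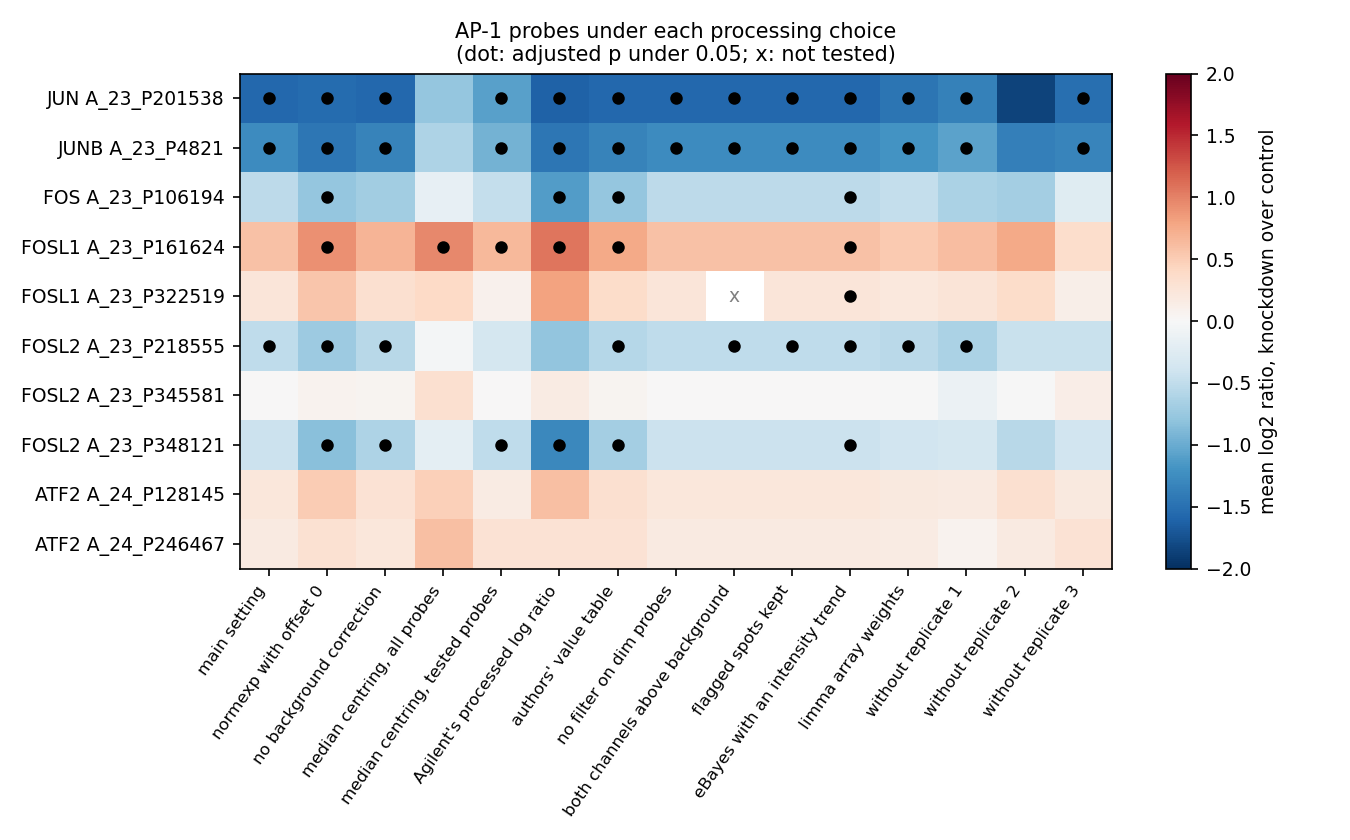
Mean log2 ratio of knockdown over control (colour) of the 10 tested AP-1 probes (rows) in the main setting and 14 alternatives (columns), with a dot where the limma adjusted p was under 0.05 and an x where a probe was not tested. JUN and JUNB were called fallen in all settings but median centring on all probes and the fit without replicate 2. The means of both FOSL1 probes stayed above 0 and the 2 ATF2 probes had no call.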

How the data were processed

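Members and settings were chosen with earlier results of these data known. The deposited intensity values were extracted by Agilent Feature Extraction 10.9.1.1 on design 014850, per the file headers. The submitters' processing notes also name limma. The deposited log10 ratio is Agilent's Cy5 over Cy3, and flags mark spots in the deposited tables. The authors' own value table gives log2 ratios, with no statement of scale, centring or direction. Its columns had medians of 0, 0.01 and 0.01. They rose with knockdown over control, loess-normalized without background correction, at Pearson's r of 0.994 to 0.995 across spots, which settles the direction. Both served as alternatives.

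Median spot signals were used, as the tables give no means. They were corrected with normexp (offset 50) and normalized by loess within each array (R 4.3.3, limma 3.58.1), with control spots at weight 0. Outlier spots were dropped and spots of a probe averaged, and no AP-1 spot was flagged or saturated. A probe was tested when 1 channel was well above background on each of the 3 arrays, counted as at least 0.5 of its spots. The test was made with lmFit and eBayes against 0, 2-sided, with Benjamini-Hochberg adjustment over 18146 probes. The offset pulls ratios of dim probes towards 0. Over the arrays, 37.5% to 50.7% of probes were above background in Cy3 and 45.5% to 53.1% in Cy5. The number of arrays limits precision. Every AP-1 and DHX9 probe is named. With no table pairing accessions with symbols, planned pathway and marker lists were not computed. The genes nearest to JUND were not computed because no probe was found for JUND. No sequences or coordinates are given.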

Additional observations from a re-analysis of the deposited data

How the results depend on the processing

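JUN and JUNB kept their sign in all 14 alternatives and their call in 12, losing it with median centring and without replicate 2. FOSL2 probe A_23_P345581, near 0, changed sign with array weights (-0.0034), and without a replicate its mean ranged from -0.11 to 0.13. With median centring the DHX9 probes had 0.068 and 0.26. Fallen AP-1 probes numbered 5 with offset 0, the authors' table and the intensity trend, and 0 with median centring; risen ones numbered 1 with offset 0, either centring, Agilent's ratio and the authors' table, and 2 with the trend. Without a replicate there were 0 to 3 fallen and 0 risen AP-1 probes. Over all probes, 1763 rose and 1568 fell. Offset 0 gave 2891 risen and 2283 fallen, the authors' values 2437 and 2056, median centring 3561 and 59 fallen, centring on the tested probes 3127 and 1088, Agilent's ratio 2808 and 1952, no filter 1066 and 997, and the trend 3000 and 2523. With each replicate left out in turn, risen probes numbered 0 to 1502 and fallen ones 0 to 1419, the 0 without replicate 2, where limma had 2228 and 2010 at an unadjusted p under 0.05. Median centring moved the median log2 ratio of tested probes from 0.018 to 0.30 and the share of upward calls from 52.9% to 98.4%, and centring on the tested probes moved that share to 74.2%. The cause of these differences was not tested. Each array holds both groups and gives 1 ratio, so the limma test of that ratio against 0 was already paired by array.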
